A study of Mus musculus with 9 samples.

Results

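The 10 genes described here are markers of the contractile and supporting cells of a tumor: Acta2, Tagln, Cnn1 and Myh11 for myofibroblasts and smooth muscle, Rgs5 and Pdgfrb for pericytes, and Pdgfra, Fap, Thy1 and S100a4 for fibroblasts. They were taken by gene symbol from the 22609 genes listed in the count files, and all 10 were listed. The RNA came from mouse tumors grown from 4T1, a mammary carcinoma line used as a model of triple-negative breast cancer (TNBC), in the fat pad of BALB/c hosts, the strain from which the line was derived. Mice of the LFD group ate a diet with 10% of its calories from fat, and mice of the HFD and HFD + EC359 groups a diet with 60%, for 6 weeks before the cells were injected and from then on until euthanasia. Once tumors had formed, HFD mice received a vehicle and HFD + EC359 mice received EC359, an inhibitor of the leukemia inhibitory factor receptor (LIFR). The dose was 5 mg/kg intraperitoneally on 5 days per week. The paper names hydroxy propyl cellulose as the vehicle for xenografts of another cell line. It does not say whether LFD mice of the 4T1 model received a vehicle. The vehicle and EC359 animals on the high-fat diet therefore differed in the compound. The LFD and HFD groups differed in the diet, and whether they also differed in the vehicle is not stated.

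Each group had 3 libraries, 9 in all, and the series describes them as 3 tumors per group without tying a library to an animal, so the p-values below measure the spread between these libraries. The libraries held 5085357 to 9751201 counts, and a count of 3 corresponded to 0.308 to 0.59 CPM, the unit of counts scaled to the TMM-adjusted library total. Adjusted p-values were computed by the quasi-likelihood test of edgeR and adjusted after Benjamini and Hochberg over the 13366 genes that passed a filter on low counts, among them 9 of the 10 markers. A gene is said to rise or fall at an adjusted p under 0.05, and a stricter rule taken from the study's methods (more than 2-fold, with an adjusted p under 0.01) is counted beside it. The libraries differed in GC content between groups: relative to the mean of the 9 libraries, the 25% of genes with the lowest exon GC minus the 25% with the highest stood at -0.54 to -0.32 on the log2 scale in the LFD group, 0.1 to 0.16 in the HFD group and 0.25 to 0.3 in the HFD + EC359 group. A marker's result is therefore also given from counts freed of each library's GC and length trend wherever this changed a call or moved the value by more than 1.5 times. The labels name the source as the 4T1 line, and the tumors held simple epithelial genes such as Krt8 and Krt18 (mean levels 482.9 and 360.6 CPM) together with endothelial and macrophage genes, so the RNA was that of a mixed tissue.

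Myofibroblasts are fibroblasts that have taken on a contractile apparatus like that of smooth muscle, with alpha smooth muscle actin (Acta2) as the usual marker, and they lay down much of the collagen of a tumor. Pericytes wrap the outside of capillaries and are held there by PDGF-B from endothelial cells acting on the receptor PDGFR-beta. Contractile genes are classically switched on by serum response factor (SRF) with its myocardin-family partners, which bind a short DNA element called the CArG box, and by TGF-beta. None of these markers is specific to one cell type: in the mammary gland, myoepithelial cells also carry Acta2, Myh11 and Cnn1, T cells carry Thy1 in the mouse, and macrophages and carcinoma cells can carry S100a4.

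Starting regions are shown for genes of several patterns in the data: Acta2 for the contractile genes that rose and then fell, Rgs5 for the pericyte genes that rose with the diet, and S100a4 for the one that went the opposite way. They are also the regions that held a motif marked below. Those of Cnn1 and of Pdgfra, which rose at each step, had an entry and are not shown. Each region is the run of 250 bases before the gene start in RefSeq (GRCm38.p6), read 5′ to 3′ on the strand of the gene. An entry was used for 5 of the 10 genes, and no sequence is shown for Tagln, Myh11, Fap, Thy1 or Pdgfrb. Capitals mark matches to a CArG-like element, written CCNNNNNNGG with at most 1 of the 6 inner bases other than A or T (the element is its own reverse complement), or to TATAAA or TATATA on either strand; the TATA motifs were chosen after the sequences had been seen.
Acta2, chr19:34255374-34255623, minus strand: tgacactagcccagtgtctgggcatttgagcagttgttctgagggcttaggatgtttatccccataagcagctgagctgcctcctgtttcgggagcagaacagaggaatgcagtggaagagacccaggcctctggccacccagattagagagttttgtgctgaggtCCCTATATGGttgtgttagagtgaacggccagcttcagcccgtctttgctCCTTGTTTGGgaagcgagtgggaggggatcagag
Rgs5, chr1:169655251-169655500, plus strand: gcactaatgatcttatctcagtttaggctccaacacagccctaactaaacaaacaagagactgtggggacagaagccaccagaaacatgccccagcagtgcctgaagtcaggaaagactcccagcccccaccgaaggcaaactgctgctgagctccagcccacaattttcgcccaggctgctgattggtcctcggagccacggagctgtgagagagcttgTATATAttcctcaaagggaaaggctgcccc
S100a4, chr3:90603520-90603769, plus strand: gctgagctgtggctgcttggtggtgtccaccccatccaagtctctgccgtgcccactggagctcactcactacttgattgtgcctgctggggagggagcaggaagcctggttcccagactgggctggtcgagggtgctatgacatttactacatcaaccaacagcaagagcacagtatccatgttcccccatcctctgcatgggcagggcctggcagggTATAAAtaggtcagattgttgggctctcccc
Acta2 held 2 CArG-like elements, CCCTATATGG at 84 to 75 bases and CCTTGTTTGG at 34 to 25 bases before the start. At least 1 such element was present in 8.59% of the 32851 RefSeq regions of this length and at least 2 in 0.67%, whereas the stricter form with all 6 inner bases A or T was present in 1.47% and not in that of Acta2. Rgs5 held TATATA at 30 to 25 bases before its start, a motif found in 5.25% of all regions. S100a4 held TATAAA at 31 to 26 bases, found in 12.4%. The other sequences with an entry, those of Cnn1 and Pdgfra, held none of these motifs. The letters are a description of the regions and no binding was measured.

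In the tumors of HFD mice, 8 of the 9 tested markers were higher than in tumors of LFD mice and S100a4 was lower. Among all tested genes, 26% rose and 25.8% fell in this comparison. With EC359 on the same diet, the contractile genes Acta2, Tagln and Myh11 fell together with Thy1 and Rgs5, Pdgfra and S100a4 rose, and Pdgfrb and Fap did not pass the test, beside 12.7% of all tested genes that rose and 13.9% that fell. Against LFD tumors, the HFD + EC359 tumors were lower in Acta2, Tagln, Myh11 and Thy1 and higher in Rgs5, Pdgfrb, Pdgfra and Fap, while 29.2% of all tested genes rose and 29.1% fell. The median log2 fold change of the 9 markers was 0.43, -0.47 and -0.04 in the 3 comparisons, and that of all tested genes 0.007, 0.006 and 0.011. These are tumor-wide RNA levels, so that fewer cells of a type and less of the RNA in each cell cannot be told apart.

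The stricter rule was met by few of the markers. Rgs5 and Fap met it in HFD against LFD, in which 3.03% of all tested genes passed it upward and 2.68% downward. Acta2 and Tagln met it in HFD + EC359 against HFD, in which 1.38% passed it downward and 2.06% upward. In HFD + EC359 against LFD, 0 of the 9 markers met it, beside 3.66% of tested genes upward and 1.43% downward, in edgeR and in DESeq2 alike, although 8 had an unadjusted p under 0.05. The libraries of the groups did not overlap for 9, 8 and 8 of the markers in the 3 comparisons, and the same held for 57.1%, 41.3% and 62.9% of all tested genes. The HFD libraries serve in the first 2 comparisons, so a gene high in them tends to be higher in one and lower in the other.

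**Figure D1:**
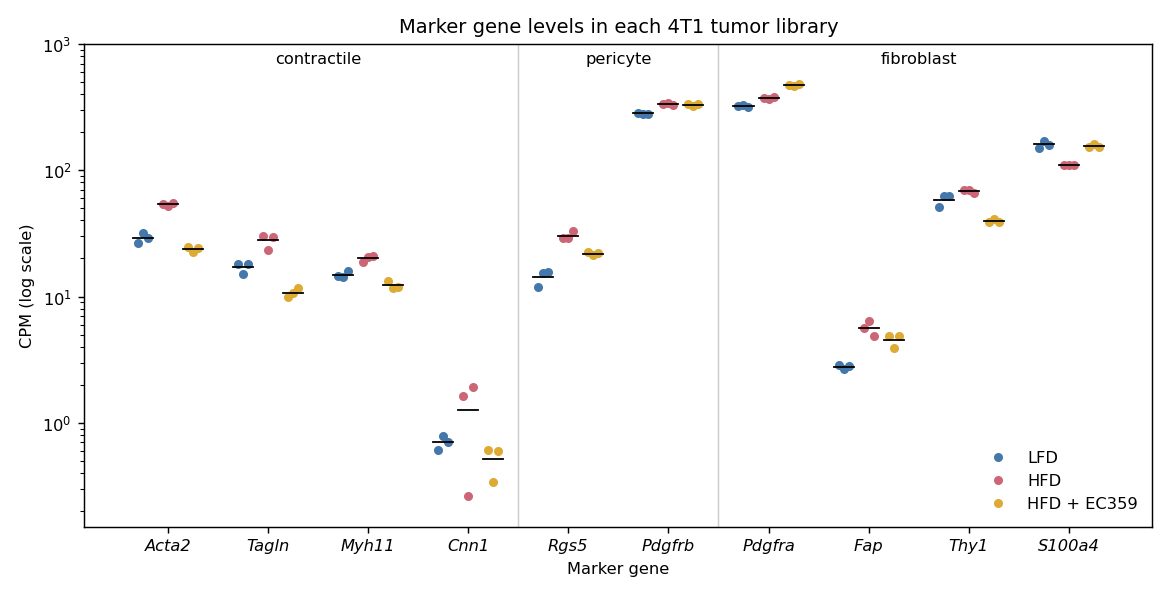
Level of each marker in every library, in CPM on a log scale, with 3 points per group (LFD, HFD and HFD + EC359) and a line at the group mean. Acta2, Tagln and Myh11 are highest in HFD and lowest in HFD + EC359, Pdgfra rises from LFD over HFD to HFD + EC359, S100a4 is lowest in HFD at 110.1 to 110.7 CPM, and the HFD points of Cnn1 spread from 0.262 to 1.91 CPM.

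Levels between genes were compared per length, as CPM divided by the exon length in kilobases (RPKM). S100a4, a small calcium-binding protein, was the most abundant of the markers with a mean level of 285 RPKM over the 9 libraries and no library below 220.6. The receptors Pdgfrb and Pdgfra followed with mean levels of 58.2 and 58, and their order in RPKM depended on the group. The ratio of Pdgfra to Pdgfrb within a library was below 1 in all LFD and HFD libraries (0.869 to 0.943). It was above 1 in all HFD + EC359 libraries (1.15 to 1.17). Their exons differed in GC content (47.6% for Pdgfra and 55.1% for Pdgfrb), for which RPKM was not corrected. Thy1, a surface glycoprotein, had a mean level of 32 RPKM (22.4 to 40.1) and Acta2 one of 20 (12.6 to 31), and Thy1 was above Acta2 in every library, 1.97 to 2.19 times in LFD, 1.23 to 1.36 times in HFD and 1.62 to 1.89 times in HFD + EC359. Rgs5 at 12.3 RPKM (6.55 to 18.2) and Tagln at 11.7 (6.26 to 19.1) changed places between groups when GC content is not corrected for. The ratio of Tagln to Rgs5 was 1.12 to 1.73 in LFD, 0.914 to 1.18 in HFD, where they did not differ beyond their spread, and 0.503 to 0.599 in HFD + EC359. With the GC and length trend removed, Tagln and Rgs5 had log2 fold changes of 0.82 and 0.74 with the HFD, against 0.71 and 1.08 in the fit reported. No direction is therefore given for the step of this ratio from LFD to HFD. With EC359 they had -1.405 and -0.582 with that trend removed. Myh11 at 2.38, Fap at 1.61 and Cnn1 at 0.417 RPKM were the lowest, and only the ranges of Myh11 and Fap overlapped among these at 1.75 to 3.16 and 0.989 to 2.38 RPKM. Both PDGF receptors were thus read at high depth in every library, whereas Cnn1 stayed near the limit of 3 counts.

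Acta2 encodes alpha smooth muscle actin and lies on chromosome 19 (34315581 to 34329826, minus strand, mm9). Its level was 26.6, 31.8 and 29.2 CPM in the LFD libraries, 54.4, 52.5 and 55.1 CPM in the HFD libraries and 24.8, 22.4 and 24.1 CPM in the HFD + EC359 libraries. All HFD libraries were above all others, and the HFD + EC359 libraries were below those of LFD. HFD tumors were 1.84-fold higher than LFD tumors, a log2 fold change of 0.88 (SE 0.0862, edgeR adjusted p = 3.42e-10). With EC359 the level was 2.27-fold lower than in HFD (log2 fold change -1.18, SE 0.0819, edgeR adjusted p = 1.94e-13). Against LFD it was lower by a smaller step, with a log2 fold change of -0.31 (SE 0.0948, edgeR adjusted p = 0.00647), a call that was lost without the second LFD library (-0.24, edgeR adjusted p = 0.0556). The Acta2 protein is nearly identical to the other muscle actins. Its deposited counts were whole numbers in all 9 libraries, which does not show whether reads were shared with those genes. Such sharing was not tested.

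Tagln encodes transgelin, an actin-binding protein of smooth muscle that is a standard SRF target, and lies on chromosome 9 (45737711 to 45744141, minus strand) across from Pcsk7 on the other strand. The counting used strand. Its level was 18, 15.1 and 18.1 CPM in LFD, 30.4, 23.2 and 29.8 CPM in HFD and 9.93, 10.7 and 11.6 CPM in HFD + EC359, so that the 3 groups did not overlap, although the second HFD library was closest to the LFD ones. It rose with the HFD by 0.71 on the log2 scale (SE 0.118, edgeR adjusted p = 6.46e-06). Under EC359 it was 2.57-fold lower than in HFD, the largest fall among the tested markers (log2 fold change -1.36, SE 0.116, edgeR adjusted p = 3.51e-11), and it was also lower than in LFD (-0.65, SE 0.136, edgeR adjusted p = 0.000124).

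Myh11, the myosin heavy chain of smooth muscle (chromosome 16, 14194620 to 14291501, minus strand), moved the same way in smaller steps. Its level was 14.5, 14.3 and 16 CPM in LFD, 18.8, 20.5 and 21 CPM in HFD and 13.3, 11.6 and 11.9 CPM in HFD + EC359. The HFD libraries were again above all others. The log2 fold change was 0.43 with the HFD (SE 0.117, edgeR adjusted p = 0.00273) and -0.71 with EC359 on that diet (SE 0.11, edgeR adjusted p = 5.99e-06). Against LFD it was -0.29 (SE 0.124) with an edgeR adjusted p of 0.0486, which did not hold in 8 of 9 other analyses or in 6 of 9 with 1 library left out, where the adjusted p reached 0.174. With the GC and length trend removed it was -0.25 (edgeR adjusted p = 0.0949), where the call was lost.

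Cnn1, the calponin of differentiated smooth muscle (chromosome 9, 21903697 to 21913665, plus strand), was too low to be tested. Its counts were 3, 5 and 4 in LFD, 13, 2 and 14 in HFD and 5, 3 and 6 in HFD + EC359. The second HFD library, with 2 counts, was the lowest of the 9, and the groups overlapped. Without the filter the log2 fold change was 0.83 for HFD against LFD (edgeR adjusted p = 0.262) and -1.27 for HFD + EC359 against HFD (edgeR adjusted p = 0.0788). When that library was left out, the values became 1.3 (edgeR adjusted p = 0.0311) and -1.74 (edgeR adjusted p = 0.00791), so that 1 library decided the call. No difference in Cnn1 was detectable at this depth with all libraries in.

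**Figure D2:**
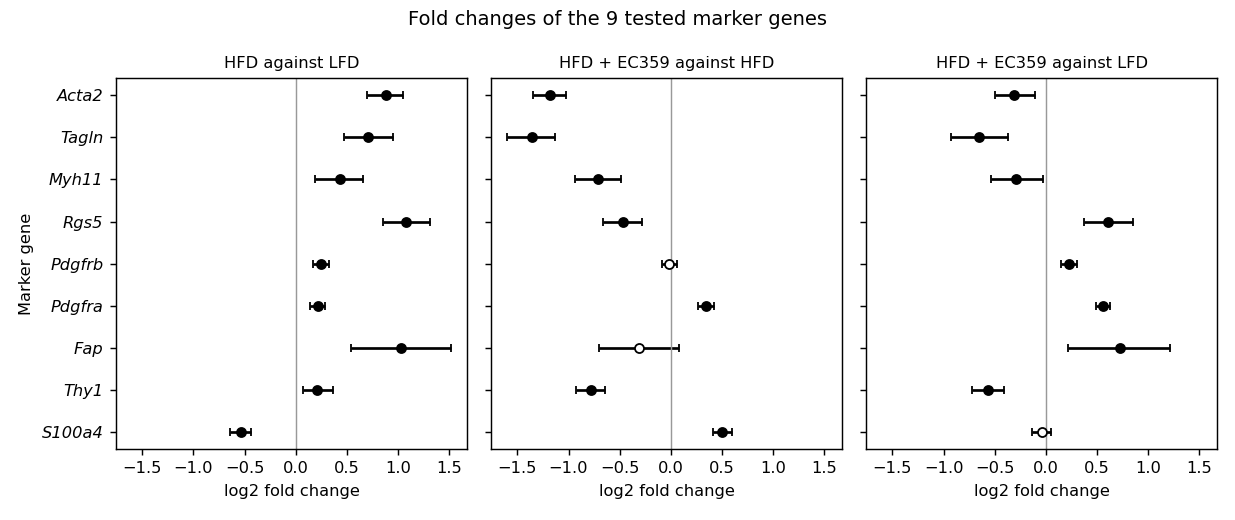
log2 fold changes of the 9 tested markers between groups, with 95% confidence intervals from the edgeR fit on the x axis and 1 row per gene; filled points passed an adjusted p of 0.05 and open points did not. Tagln and Acta2 lie farthest to the left with EC359 at -1.36 and -1.18, Rgs5 and Fap farthest to the right with the HFD at 1.08 and 1.03, and the open points are Pdgfrb and Fap in the second panel and S100a4 in the last.

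Other contractile genes of smooth muscle moved in both directions with the diet and, where they passed, downward with EC359. Of 18 such genes, 17 were tested. With the HFD 9 rose and 2 fell, with a median log2 fold change of 0.15, and with EC359 9 fell and none rose (0 also at an unadjusted p under 0.05 in edgeR, and 0 in DESeq2), with a median of -0.19. Removing the GC and length trend gave 1 that rose with EC359. Actg2, the gamma actin of visceral smooth muscle, met the stricter rule with the HFD (log2 fold change 1.69, SE 0.378, edgeR adjusted p = 0.000342), from a mean of 0.954 CPM in LFD to 3.08 CPM in HFD. Its fall with EC359 to 1.74 CPM (-0.83, SE 0.291, edgeR adjusted p = 0.032) was lost with DESeq2 (adjusted p = 0.184) and when HFD replicate 1 or 2 or HFD + EC359 replicate 1 or 3 was left out (edgeR adjusted p up to 0.148).

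The 3 most abundant genes of that list are expressed well beyond smooth muscle. Tropomyosin Tpm1 rose by 0.15 (SE 0.0395, edgeR adjusted p = 0.00227) and fell by 0.32 with EC359 (SE 0.0384, edgeR adjusted p = 4.95e-08). Caldesmon (Cald1) had log2 fold changes of 0.25 (edgeR adjusted p = 8.69e-07) and -0.19 (edgeR adjusted p = 0.000117), the first of which was 0.02 with the GC and length trend removed (edgeR adjusted p = 0.667). Alpha-actinin-1 (Actn1) went down with the HFD (log2 fold change -0.21, SE 0.0333, edgeR adjusted p = 3.21e-06) and did not pass the test with EC359 (-0.02, SE 0.0328, edgeR adjusted p = 0.73).

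The transcription factors of this program moved in both directions with the HFD. Srf itself fell with the HFD (log2 fold change -0.48, SE 0.0589, edgeR adjusted p = 3.55e-08) and again with EC359 (-0.27, SE 0.0592, edgeR adjusted p = 0.000655), from a mean of 144.9 CPM in LFD to 103.5 and 85.7 CPM, so that with the HFD it went against the contractile markers. Of 7 SRF and myocardin-family genes, 6 were tested, of which 3 rose and 2 fell with the HFD (median log2 fold change 0.16) and 3 fell with EC359 (median -0.11; 0 rose in edgeR, also at an unadjusted p under 0.05, or in DESeq2), a count that became 1 without the first HFD library. Myocd, the myocardin gene itself, had 1 to 6 counts per library and was not tested. The ternary complex factor Elk3 rose with the HFD by 0.20 (SE 0.0448, edgeR adjusted p = 0.00035), and its fall of 0.12 with EC359 (edgeR adjusted p = 0.0372) was lost in 3 other analyses and without any of 5 libraries in turn (edgeR adjusted p up to 0.143). Elk4 rose by 0.19 with the HFD (SE 0.0532, edgeR adjusted p = 0.00381) and had a log2 fold change of 0.05 with EC359 (edgeR adjusted p = 0.518). The SRF coactivator Mkl1 was lower in HFD than in LFD (-0.42, SE 0.0507, edgeR adjusted p = 2.28e-08) and lower again with EC359 (-0.17, SE 0.0503, edgeR adjusted p = 0.00904), the second of which was -0.10 with the GC and length trend removed (edgeR adjusted p = 0.129) and was lost without the first HFD or the first HFD + EC359 library (edgeR adjusted p up to 0.0561).

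Myoepithelial cells are the other main source of these contractile proteins in the mammary gland. A list of 6 genes of myoepithelial and other basal epithelial cells was examined (Krt5, Krt14, Krt17, Trp63, Oxtr and Cdh3). It does not separate myoepithelium from other basal epithelium, and Oxtr, with 1 to 5 counts per library, was not tested. All 5 that were tested fell with the HFD and all 5 rose with EC359. Their summed level was 1097 to 1261 CPM in LFD, 75.6 to 85.2 CPM in HFD and 507.3 to 511.1 CPM in HFD + EC359, while the sum of the 4 contractile markers was 59.7 to 64.1, 96.4 to 107.8 and 45.1 to 48.7 CPM. In sum, the basal genes were lowest in the group where the contractile markers were highest. None of them was at 0 in a whole group. The 7 skeletal muscle genes summed to 115.7 to 129.7 CPM in LFD, 127.6 to 138.1 CPM in HFD and 103.6 to 110.3 CPM in HFD + EC359, with 3 that rose and 1 that fell with the HFD and 1 that rose and 3 that fell with EC359. Among these, the skeletal actin Acta1 averaged 41.2, 38.2 and 31 CPM in the 3 groups. The part of skeletal muscle or myoepithelium in the contractile result was not tested.

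**Figure D3:**
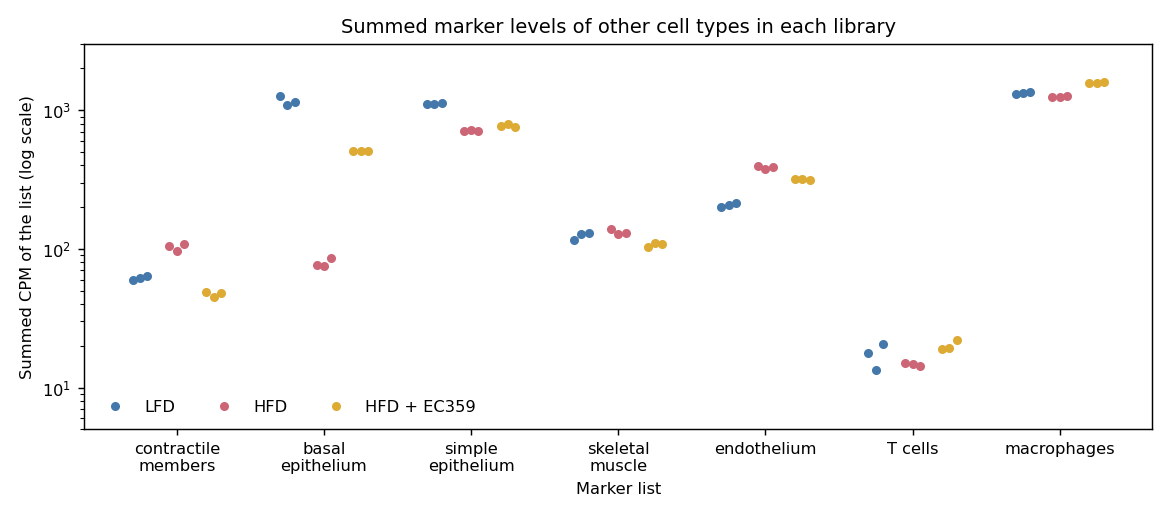
Summed CPM, on a log scale, of the 4 contractile markers and of marker lists for other cell types in each of the 9 libraries (LFD, HFD, HFD + EC359). Basal epithelial genes drop from above 1097 to below 85.2 CPM in HFD while the contractile markers rise, endothelial genes are highest in HFD at 374.6 to 398.3 CPM, and macrophage genes are highest in HFD + EC359 at 1577 to 1596 CPM.

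Rgs5, a regulator of G-protein signaling that is among the most selective pericyte markers, lies on chromosome 1 (171585632 to 171623657, plus strand). Its level was 11.9, 15.4 and 15.5 CPM in LFD, 29.2, 28.9 and 32.9 CPM in HFD and 22.5, 21.2 and 22.1 CPM in HFD + EC359. The 3 groups did not overlap, and the HFD + EC359 libraries lay between the others. It was 2.11-fold higher in HFD than in LFD (log2 fold change 1.08, SE 0.113, edgeR adjusted p = 1.34e-09), lower with EC359 than in HFD (-0.47, SE 0.0943, edgeR adjusted p = 0.00027) and still higher than in LFD (0.61, SE 0.116, edgeR adjusted p = 3.68e-05). Its exons had the lowest GC content of the markers at 41.7%. With the GC and length trend removed, the difference from LFD was 0.74 in HFD (edgeR adjusted p = 6.86e-07), under the 2-fold limit of the stricter rule, and 0.15 in HFD + EC359 (edgeR adjusted p = 0.268), where the call was lost. Without the first LFD library the difference of HFD from LFD was 0.97, also under that limit.

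Pdgfrb, the receptor for PDGF-B on pericytes and on fibroblasts, differed little. Its level was 285.1, 278.9 and 280.6 CPM in LFD, 332.5, 338 and 330.7 CPM in HFD and 333.3, 324.7 and 331.7 CPM in HFD + EC359. Both HFD groups were above LFD and overlapped each other. The log2 fold change against LFD was 0.25 in HFD (SE 0.0371, edgeR adjusted p = 1.45e-06) and 0.23 in HFD + EC359 (SE 0.0368, edgeR adjusted p = 2.7e-06), the latter 0.36 once the GC and length trend was removed (edgeR adjusted p = 2.41e-11). Between HFD + EC359 and HFD it was -0.02, with a 95% confidence interval of -0.09 to 0.06 (edgeR adjusted p = 0.785), and 0.02 with that trend removed (edgeR adjusted p = 0.693). Rgs5 and Pdgfrb therefore shared a direction with the diet and differed in whether they passed the test with EC359, a difference between the 2 genes that was not itself tested.

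Other pericyte genes were mixed. Of 12 genes, 9 were tested, and 5 rose and 2 fell with the HFD (median log2 fold change 0.21), while 1 rose and 4 fell with EC359 (median -0.25). DESeq2 called 3 higher with the HFD. Abcc9, a subunit of the potassium channel of pericytes and vascular smooth muscle, rose from a mean of 10.7 CPM to 27.5 CPM with the HFD and met the stricter rule (log2 fold change 1.36, SE 0.133, edgeR adjusted p = 3.59e-10), and it fell to 17.7 CPM with EC359 (-0.62, SE 0.108, edgeR adjusted p = 3.7e-05). The adhesion molecule Mcam had log2 fold changes of 0.48 (SE 0.0503, edgeR adjusted p = 1.53e-09) and -0.25 (SE 0.0459, edgeR adjusted p = 9.99e-05). Notch3, the receptor of mural cells, fell with EC359 by 0.93 (SE 0.0605, edgeR adjusted p = 4.49e-14) from 90.5 to 47.6 CPM, and its value of 0.15 with the HFD (edgeR adjusted p = 0.0384) was lost with DESeq2, with 6 libraries alone and without any of 4 libraries in turn (edgeR adjusted p up to 0.221). Anpep, an aminopeptidase that myeloid cells also carry, went the other way, with -0.55 (SE 0.0829, edgeR adjusted p = 1.37e-06) and 0.51 (SE 0.0779, edgeR adjusted p = 5.59e-06).

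The ligands of these receptors divided into those that fell and those that rose with the diet. Of the 4 PDGF genes, Pdgfc and Pdgfd rose and Pdgfa and Pdgfb fell with the HFD, a median log2 fold change of 0.51. Pdgfd had 2, 5 and 3 counts in LFD and 16, 13 and 10 in HFD (log2 fold change 1.5, SE 0.486, edgeR adjusted p = 0.0101), and its call was lost with DESeq2 (adjusted p = 0.0518) and with the trend removal and replicate block together (edgeR adjusted p = 0.0526). Pdgfc, a ligand of PDGFR-alpha, met the stricter rule (1.18, SE 0.164, edgeR adjusted p = 3.76e-07) and had a value of -0.24 with EC359 (SE 0.129, edgeR adjusted p = 0.174). Pdgfb was lower in HFD by 0.15 on the log2 scale (SE 0.0474, edgeR adjusted p = 0.00718) and fell further with EC359, from a mean of 152.7 to 108.3 CPM (-0.50, SE 0.0472, edgeR adjusted p = 4.36e-10). Pdgfa fell in both steps, by 0.36 (SE 0.0644, edgeR adjusted p = 1.85e-05) and by 0.35 (SE 0.0645, edgeR adjusted p = 9.12e-05). With the GC and length trend removed, neither Pdgfa nor Pdgfb passed the test with the HFD (-0.08 and 0.09, edgeR adjusted p = 0.306 and 0.0763), so that the direction of Pdgfb turned, and Pdgfb also missed it without the third HFD library (-0.125, edgeR adjusted p = 0.0537). With EC359 2 fell, the median was -0.39, and 0 rose in edgeR, also at an unadjusted p under 0.05, or in DESeq2.

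Endothelial genes moved beside the pericyte markers. All 7 tested (Pecam1, Cdh5, Kdr, Tek, Emcn, Esam and Vwf) rose with the HFD and 5 fell with EC359. Their sum was 199.1 to 213.2 CPM in LFD, 374.6 to 398.3 CPM in HFD and 311.6 to 319.4 CPM in HFD + EC359, and none was at 0. Rgs5 had the same order in CPM, although its call for HFD + EC359 against LFD was lost with the GC and length trend removed. The endothelial sums were not corrected for that trend. The part of vessel content in the pericyte result was not tested.

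Pdgfra, the receptor that marks most fibroblasts (chromosome 5, 75548316 to 75594229, plus strand), rose at each step. Its level was 319.9, 327.6 and 319.4 CPM in LFD, 374.7, 365.7 and 382.7 CPM in HFD and 475.6, 467.1 and 483 CPM in HFD + EC359. No group overlapped another. HFD + EC359 tumors were above LFD tumors by 0.56 on the log2 scale (SE 0.0358, edgeR adjusted p = 9.19e-15). The step from LFD to HFD was 0.22 (SE 0.0365, edgeR adjusted p = 8.73e-06) and was not called with the GC and length trend removed (0.06, edgeR adjusted p = 0.148), whereas the step with EC359 was 0.34 (SE 0.0346, edgeR adjusted p = 1.43e-09) in this fit and in that one. Pdgfra was thus a marker that went up with EC359 while the contractile genes went down.

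Fap, a serine protease on the surface of activated fibroblasts (chromosome 2, 62339002 to 62412078, minus strand), was present in few counts: 14, 17 and 16 in LFD, 45, 49 and 36 in HFD and 40, 35 and 49 in HFD + EC359. In CPM the libraries were at 2.86, 2.67 and 2.82, at 5.67, 6.41 and 4.9, and at 4.85, 3.94 and 4.89. Both HFD groups lay above LFD. HFD tumors were 2.04-fold higher (log2 fold change 1.03, SE 0.24, edgeR adjusted p = 0.000591), and the value was 0.70 with the GC and length trend removed (edgeR adjusted p = 0.019), 0.99 without the second LFD library and 0.93 without the second HFD library, all under the 2-fold limit of the stricter rule. Fap exons had a GC content of 42.0%, next to the lowest. With EC359 the log2 fold change against HFD was -0.31 with a 95% confidence interval of -0.7 to 0.08 (edgeR adjusted p = 0.256), although the libraries did not overlap. Against LFD the HFD + EC359 libraries were higher by 0.72 (SE 0.244, edgeR adjusted p = 0.0126), a call that was lost with DESeq2 (0.71, adjusted p = 0.0615) and once the GC and length trend was removed (0.28, edgeR adjusted p = 0.366).

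Thy1, the CD90 surface protein of fibroblasts and, in the mouse, of T cells (chromosome 9, 43851467 to 43856662, plus strand), rose with the HFD and fell with EC359, as the contractile genes did. Its level was 51.1, 62.4 and 62.3 CPM in LFD, 69.5, 69.3 and 66.2 CPM in HFD and 39.1, 41.2 and 38.8 CPM in HFD + EC359. The first LFD library stood below the other 2, and the HFD + EC359 libraries were below all others. Thy1 fell with EC359 by 0.78 on the log2 scale against HFD (SE 0.071, edgeR adjusted p = 1.44e-10) and by 0.57 against LFD (SE 0.0761, edgeR adjusted p = 1.1e-07). Its rise with the HFD was small (0.21, SE 0.0721, edgeR adjusted p = 0.0133), and it became 0.13 without the first LFD library (edgeR adjusted p = 0.118) and 0.41 once the GC and length trend was removed (edgeR adjusted p = 1.26e-05). Of 7 T cell genes 4 were tested. With the HFD 1 fell and 3 did not pass the test, and with EC359 1 rose and 3 did not pass. The 7 T cell genes summed to 13.3 to 20.6 CPM in LFD, 14.3 to 15.1 CPM in HFD and 19.1 to 22 CPM in HFD + EC359. The part of T cells in the Thy1 result was not tested.

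S100a4, which was first described as a fibroblast-specific protein and is also made by macrophages and by metastatic carcinoma cells, lies on chromosome 3 (90407692 to 90409967, plus strand). Its level was 151.4, 169.7 and 159.5 CPM in LFD, 110.1, 110.7 and 110.3 CPM in HFD and 153.6, 161.9 and 152.9 CPM in HFD + EC359. The HFD libraries were below all others, and the other two groups overlapped. It was the single marker that fell with the HFD (log2 fold change -0.54, SE 0.0493, edgeR adjusted p = 6.81e-11), and it rose with EC359 (0.5, SE 0.047, edgeR adjusted p = 3.07e-10). HFD + EC359 differed from LFD by -0.04 with a 95% confidence interval of -0.14 to 0.05 (edgeR adjusted p = 0.47), which became -0.25 with the GC and length trend removed (edgeR adjusted p = 4.78e-06). Macrophage genes summed to 1310 to 1342 CPM in LFD, 1246 to 1259 CPM in HFD and 1577 to 1596 CPM in HFD + EC359, with 3 of 6 higher and 1 lower with the HFD and all 6 higher with EC359. Simple epithelial genes, which the carcinoma cells can carry, summed to 1113 to 1134, 703.9 to 713.6 and 762 to 789.6 CPM, the lowest level again being in HFD, with Cldn7 at 0 in all HFD + EC359 libraries. All 4 epithelial genes tested fell with the HFD and 3 rose with EC359. Neutrophil genes summed to 102.4 to 123.8, 130.6 to 142.4 and 165.3 to 171.1 CPM. Epidermal genes summed to 176.1 to 188.4, 112.6 to 122.2 and 160.5 to 166.1 CPM, the lowest level being in HFD. Of 6 epidermal genes tested, 1 rose and 4 fell with the HFD, and 5 rose with EC359. Adipocyte genes summed to 9.4 to 12.9, 26.2 to 29.1 and 25.3 to 29 CPM. The part of these cells in the S100a4 result was not tested.

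Other fibroblast genes comprised collagens and other matrix genes and genes of fibroblast subsets, and their values are set beside medians of 0.21 with the HFD and 0.02 with EC359 for the log2 fold changes of the 4 fibroblast markers. Of 20, 18 were tested, and 14 rose and 2 fell with the HFD with a median log2 fold change of 1.01, 9 of them by the stricter rule. With EC359 13 fell and 0 rose (in edgeR, also at an unadjusted p under 0.05, and in DESeq2), with a median of -1.07, 11 of them by the stricter rule. Scaling by library totals gave 1 that rose. The type I collagen genes were the most abundant: Col1a1 went from a mean of 4207 CPM in LFD to 6863 CPM in HFD and 1611 CPM in HFD + EC359 (log2 fold changes 0.71, SE 0.0438, edgeR adjusted p = 7.12e-15, and -2.09, SE 0.0455, edgeR adjusted p = 1.36e-27), and Col1a2 had values of 0.77 and -2.06. The type III collagen Col3a1 was similar in direction at 0.98 and -1.98. Vim, an intermediate filament gene of all mesenchymal and many carcinoma cells, fell with the HFD (-0.35, SE 0.0262, edgeR adjusted p = 6.91e-13) and just missed the test with EC359 (-0.07, edgeR adjusted p = 0.0515), which it passed in 5 other analyses and 2 with a library left out.

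The matrix and fibroblast-subset genes that met the stricter rule in both of these comparisons included Lum, a collagen-binding proteoglycan (log2 fold changes 1.05 and -1.08), and Mfap5, a microfibril protein (2.24 and -2.05). Dpt and Pi16, which mark resting fibroblasts of many tissues, had values of 1.35 and -1.06 and of 1.18 and -1.05. Lrrc15 and Cthrc1, which mark activated tumor fibroblasts, had values of 1.28 and -1.15 and of 1.37 and -1.48. The chemokine Cxcl12 (1.54 and -1.1) and the secreted lectin Clec3b (3.13 and -1.58) moved the same way. The Clec3b value with the HFD (SE 0.352) rested on 5, 4 and 4 counts in LFD, near the limit of 3, and 43, 62 and 52 in HFD. Dcn, another proteoglycan, rose by 1.46 with the HFD (SE 0.0899, edgeR adjusted p = 6.08e-15) and stood at -0.12 with EC359 (edgeR adjusted p = 0.22), or at -0.22 with the GC and length trend removed (edgeR adjusted p = 0.00932). All 4 fibroblast markers summed to 525.3 to 562.3 CPM in LFD, 552.2 to 564 CPM in HFD and 673.2 to 679.6 CPM in HFD + EC359, a sum made up mostly of Pdgfra and S100a4. Thy1 was lowest in HFD + EC359, and Fap had a lower mean there than in HFD (4.56 against 5.66 CPM).

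**Figure D4:**
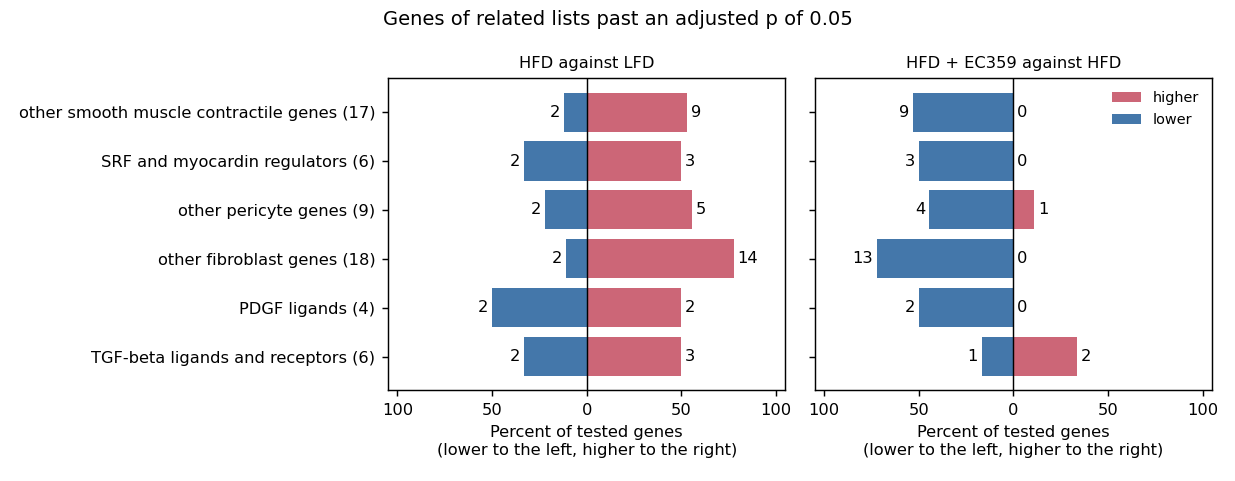
Percent of the tested genes of each related list that passed an adjusted p of 0.05, lower to the left and higher to the right, with the diet (HFD against LFD) and with the compound (HFD + EC359 against HFD), with the number of genes tested in parentheses and the number called beside each bar. Of the 18 other fibroblast genes 14 rose with the HFD and 13 fell with EC359, while the PDGF ligands split 2 and 2 with the HFD.

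TGF-beta is a classical inducer of Acta2 and collagen, and of its 3 ligand and 3 receptor genes 3 rose and 2 fell with the HFD (median log2 fold change 0.16), and 2 rose and 1 fell with EC359 (median 0). The type I receptor Tgfbr1 rose with the HFD (0.77, SE 0.0458, edgeR adjusted p = 3.03e-15) and had a value of 0.02 with EC359 (edgeR adjusted p = 0.773). The type II receptor Tgfbr2 did not pass either test (0.09 and -0.01, edgeR adjusted p = 0.078 and 0.871), although it passed the first when scaled by library totals and without the first LFD library. The coreceptor Tgfbr3 had -0.12 with the HFD (edgeR adjusted p = 0.0258), lost when scaled by library totals and without any of 3 libraries in turn (edgeR adjusted p up to 0.167), and it rose with EC359 (0.52, SE 0.042, edgeR adjusted p = 9.11e-12).

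Ratios within a library do not depend on how the libraries were scaled, and they showed how the markers moved against each other. The RPKM ratio of Acta2 to Pdgfra was 0.314, 0.368 and 0.346 in LFD, 0.55, 0.543 and 0.545 in HFD and 0.198, 0.182 and 0.189 in HFD + EC359. All 3 groups were apart. The ratio of Acta2 to Pdgfrb had the same order, at 0.283, 0.347 and 0.317 in LFD, 0.498, 0.472 and 0.507 in HFD and 0.227, 0.21 and 0.221 in HFD + EC359. Acta2 to Rgs5 gave another picture: 2.28, 2.11 and 1.92 in LFD, 1.89, 1.84 and 1.7 in HFD and 1.12, 1.08 and 1.11 in HFD + EC359, lower in HFD than in LFD (log2 change of the ratio -0.2 in the fit reported). That small step turned to 0.1 with the GC and length trend removed, so no direction is given for it, whereas the step with EC359 was -0.72 in the one and -0.66 in the other. Pdgfra to Pdgfrb was 0.901, 0.943 and 0.914 in LFD and 0.905, 0.869 and 0.93 in HFD, which overlapped. It was 1.15, 1.16 and 1.17 in HFD + EC359, above both when GC content is not corrected for. The lowest two-sided p that an exact permutation test can reach for 3 libraries in each of 2 groups is 0.1, so these are given as values. The ratios were not corrected for GC content, in which Rgs5 (41.7%) was farther from Acta2 (48.9%) than Pdgfra (47.6%) was. Pdgfrb stood at 55.1%. With the GC and length trend removed, Pdgfra and Pdgfrb had log2 fold changes of 0.06 and 0.34 with the HFD, against 0.22 and 0.25 in the fit reported. With EC359 they had 0.335 and 0.022. No direction of their ratio against LFD is therefore given, whereas its rise with EC359 over HFD was kept.

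**Figure D5:**
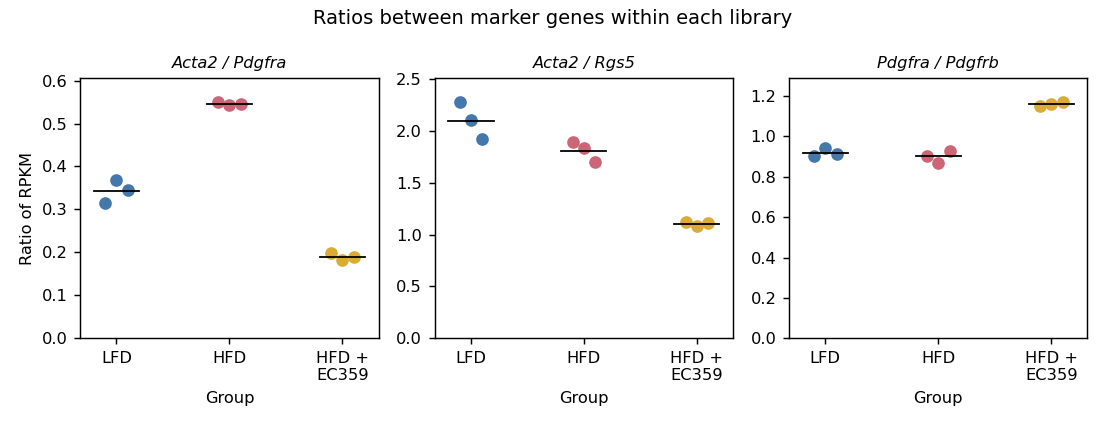
Ratio of RPKM values of 2 markers in each library, not corrected for GC content, with 3 points per group and a line at the group mean. Acta2 over Pdgfra is highest in HFD at 0.543 to 0.55 and lowest in HFD + EC359, Acta2 over Rgs5 is lowest in HFD + EC359 at 1.08 to 1.12, and Pdgfra over Pdgfrb is above 1 in HFD + EC359 only.

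The genes whose levels over the 9 libraries were most like those of a marker were found by Pearson's r of log2 CPM among all tested genes. The 9 points form 3 groups of 3 libraries, so r mostly reflects the group means and is given as a description. Closest to Acta2 were Col12a1, a collagen of dense tissue (0.992), Fbn2, a fibrillin (0.979), Hmox1, heme oxygenase 1 (0.976), Phldb2 (0.975) and Gpx3 (0.973). Closest to Rgs5 were Sept11 (0.993), C4a (0.993), Igf2bp2 (0.991), Tgif1 (0.989) and the matrix gene Postn (0.986). Closest to Pdgfra were Hbp1 (0.995), Mudeng (0.995), Dbt (0.993), Pdia6 (0.991) and Asap1 (0.99), with no collagen or contractile gene among these 5.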

How the data were processed

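Per the file headers, the authors made expected counts of read pairs per gene with featureCounts 1.5.0-p1 on mm9 genes, reverse-stranded, with a minimum mapping quality of 2 and with multiply assigned pairs split into fractions; the deposited values were not normalized. The submitters' processing notes name HISAT2 2.1.0, while the study's methods name TopHat2 and HTSeq. Values with fractions made up 1.19% to 3.55% of a library's genes, and all were rounded. Exon lengths (the deposited length column) served for RPKM.

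In R 4.3.3, genes were filtered with filterByExpr by group (13366 of 22609 kept), scaled with TMM factors and fitted with the quasi-likelihood model of edgeR 4.0.16 over all 9 libraries. The coefficient of variation between libraries of a group beyond counting noise, which edgeR calls biological, was 3.63%. As no library was tied to an animal, it may not measure the spread between animals. Standard errors follow from the F statistics. CPM used TMM-scaled totals. Cnn1 failed the filter.

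The members and lists were chosen with earlier results of these data known. Named genes were the 10 markers, the 3 most abundant genes of each pathway list and those past the stricter rule in the first 2 comparisons, and the 5 genes most like Acta2, Rgs5 and Pdgfra. Skeletal muscle, endothelial and other genes named beside a list are its members, and Srf, Pdgfd and Acta1 were named after their values were seen. A planned naming of genes closest in protein sequence to a marker was not made.

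Alternatives were DESeq2 1.42.0, RLE factors, library totals, no filter, at least 10 counts in every library, the 6 libraries of a comparison, a replicate block, the removal of each library's GC and length trend (loess, span 0.3; GC from the mm9 genome), both together, and each library left out. The steps were tested on simulated data. Within groups the mean chi-square per gene between libraries was 1.36 to 3, and no 2 libraries agreed within sampling noise. Intervals and limits of 3 counts cover counting error only where no replicates enter.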

Additional observations from a re-analysis of the deposited data

How the results depend on the processing

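Of 486 values of the 9 markers under the alternatives, 457 kept their direction and their side of an adjusted p of 0.05, 23 lost and 2 gained the call and 4 turned sign. The turns were those of Pdgfrb for HFD + EC359 against HFD (0.016 with library totals, 0.022 with the GC and length trend removed, 0.022 with the replicate block added to that) and of S100a4 for HFD + EC359 against LFD (0.034 with library totals), all near 0. Acta2, Tagln and Myh11 kept their calls in HFD against LFD and in HFD + EC359 against HFD under each of these alternatives and with each library left out.

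Markers that rose by the stricter rule in HFD against LFD went from 2 to 0 with the GC and length trend removed and to 0 with the replicate block as well, and were 1 to 2 with a library left out (1 without the first or second LFD or the second HFD library). Markers higher in HFD + EC359 than in LFD went from 4 to 2 with the GC and length trend removed, with or without the replicate block, and those lower ranged from 2 to 4 with a library left out (2 without the second LFD library). The causes were not tested. Replicate numbers do not pair the samples (correlations of deviations -0.03 to 0.03). The replicate block alone left the counts in place except for markers lower in HFD + EC359 than in LFD, which went from 4 to 3 as Myh11 was lost (-0.287, edgeR adjusted p = 0.0535). Of 1145 values of the 32 list genes named, 55 had another call or sign. The sign turned for Pdgfb in HFD against LFD (0.093 with the GC and length trend removed, 0.092 with the block) and, in HFD + EC359 against HFD, for Actn1 (0.013) and Tgfbr2 (0.021) with library totals, for Tgfbr1 with the GC and length trend removed (-0.084, and -0.085 with the block) and with a library left out for Elk4 (0 to 0.086), Tgfbr2 (-0.041 to 0.016) and Tgfbr1 (-0.003 to 0.034).

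List counts moved by more than 1.5 times in few cases. In HFD against LFD, pericyte genes higher went from 5 to 3 (DESeq2) and lower from 2 to 1 (GC and length), PDGF ligands higher from 2 to 1 (DESeq2, at least 10 counts, 6 libraries, GC and length with the block) and lower from 2 to 0 (GC and length) or 1 (without the third HFD library), and TGF-beta genes lower from 2 to 1 (library totals, GC and length, or without LFD replicate 1 or 3 or HFD replicate 2). With EC359 against HFD, contractile genes higher went from 0 to 1 (GC and length), fibroblast genes higher from 0 to 1 (library totals) and SRF genes lower from 3 to 1 (without the first HFD library). In HFD + EC359 against LFD, pericyte genes lower went from 1 to 2 (RLE, replicate block, or without LFD replicate 3 or HFD + EC359 replicate 1), PDGF ligands higher from 1 to 2 (without the second HFD + EC359 library) and TGF-beta genes lower from 1 to 0 (GC and length). With library totals the share of higher genes among all called in HFD + EC359 against HFD was 58.4% in place of 47.8%. Depth limited Cnn1 and Fap most.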
